A study of Arabidopsis thaliana with 13 samples.

Results

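The 9 genes described here encode regulators of root hair growth and proteins of the root hair wall, and they were taken from the deposited table by their gene identifiers alone, as 9 of its 33033 genes. The regulators are RHD6 (AT1G66470), RSL2 (AT4G33880) and RSL4 (AT1G27740). RHD2 (AT5G51060) is the oxidase of the growing hair. The wall and surface proteins are COBL9 (AT5G49270, named SHV2 in the table), PRP1 (AT1G54970), PRP3 (AT3G62680), LRX1 (AT1G12040) and LRX2 (AT1G62440). Polyadenylated RNA of whole Arabidopsis thaliana seedlings was sequenced. Seedlings of wild type (Col-0) and of etr1-1 had 6 h of white light, grew in darkness at 22 °C and were 4 days old when they were moved for 4 h into liquid medium with a compound or with its solvent. The groups were wild type with 10 µM ACC (3 libraries), wild type with 30 µM PFT-α (3), etr1-1 with 30 µM PFT-α (2), etr1-1 with the solvent DMSO (mock, 2) and wild type with DMSO (mock, 3). ACC is the direct precursor of ethylene in plants, and PFT-α (pifithrin-alpha) is known as an inhibitor of the animal protein p53. The etr1-1 allele changes the ethylene receptor ETR1 so that the plant does not respond to ethylene. Roots were not dissected, so every value is a level in RNA of the whole seedling, and fewer root hair cells cannot be told apart from less RNA per hair cell.

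Root hairs are outgrowths of single epidermal cells. Their fate is set by a patterning network in which GL2 blocks hair formation in the neighbouring cell files. In the hair cells the basic helix-loop-helix protein RHD6 starts the programme and switches on related factors, among them RSL2 and RSL4, and the amount of RSL4 sets how long a hair grows. These factors act on genes for wall loosening, wall structure, calcium and reactive oxygen at the tip. Ethylene is known to promote hair formation and elongation in light-grown roots, and EIN3, the transcription factor of the ethylene pathway, has been placed beside RHD6 upstream of RSL4.

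The regions just upstream of 4 wall protein genes are shown because 3 of them, PRP1, PRP3 and LRX1, hold the root hair element, a sequence known from promoters of root hair genes, while LRX2, the closest relative of LRX1, does not. Each run is the 250 bases before the annotated transcript start, 5′ to 3′ on the gene's strand, from RefSeq's TAIR10.1 genome, and capitals mark the element, which read on the opposite strand in all 3. The PRP1 run lies at chr1:20504651-20504900, the PRP3 run at chr3:23182472-23182721, the LRX1 run at chr1:4069742-4069991 and the LRX2 run at chr1:23112683-23112932, all on the plus strand.
PRP1: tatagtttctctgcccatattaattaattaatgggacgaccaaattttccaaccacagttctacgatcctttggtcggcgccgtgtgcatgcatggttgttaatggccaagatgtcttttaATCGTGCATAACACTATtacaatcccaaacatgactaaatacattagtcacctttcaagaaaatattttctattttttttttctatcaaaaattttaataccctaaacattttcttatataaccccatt
PRP3: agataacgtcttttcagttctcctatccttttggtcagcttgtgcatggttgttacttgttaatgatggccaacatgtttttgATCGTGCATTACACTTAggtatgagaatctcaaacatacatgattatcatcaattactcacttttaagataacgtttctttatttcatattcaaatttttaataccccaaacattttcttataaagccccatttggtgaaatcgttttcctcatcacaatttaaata
LRX1: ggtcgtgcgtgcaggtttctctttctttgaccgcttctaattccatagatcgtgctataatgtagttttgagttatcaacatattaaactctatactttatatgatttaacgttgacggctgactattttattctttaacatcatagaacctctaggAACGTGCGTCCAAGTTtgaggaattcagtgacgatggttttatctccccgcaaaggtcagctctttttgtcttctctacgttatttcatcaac
LRX2: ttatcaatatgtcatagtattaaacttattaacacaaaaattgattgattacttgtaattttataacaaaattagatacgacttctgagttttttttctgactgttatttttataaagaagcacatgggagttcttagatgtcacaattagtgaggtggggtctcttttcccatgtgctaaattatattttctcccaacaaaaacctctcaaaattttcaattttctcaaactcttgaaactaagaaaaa
The element began 129 bases before the start of PRP1, 167 bases before that of PRP3 and 93 bases before that of LRX1. Searched by name on both strands, it was present in 207 of 27443 promoters of this length (0.754%). The E-box CANNTG (both strands, CACGTG included) was in 55.3% of promoters and in 4 of the 9, those of RHD6, RHD2, PRP3 and LRX2. The G-box CACGTG was in 6.49% of promoters and in 0 of the 9. These matches describe the letters in the window and were not tested as binding sites.

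None of the 9 genes overlapped another annotated gene. RHD6 lies at chr1:24795214-24797015, RSL4 at chr1:9654475-9656089, PRP1 at chr1:20504901-20506504, LRX1 at chr1:4069992-4072681 and LRX2 at chr1:23112933-23115293. PRP3 lies at chr3:23182722-23184042, RSL2 at chr4:16239363-16241169, RHD2 at chr5:20757199-20762461 and COBL9 at chr5:19971884-19974530. Transcripts of LRX1 and LRX2 shared 72.7% of bases over 2135 aligned, and those of PRP3 and PRP1 73.3% over 1264. No other transcript matched a member at 95% identity or more over 150 bases.

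Estimated depth was 20.3 to 24.7 M fragments in the wild-type libraries and 25.5 to 29.4 M in those of etr1-1. Depth thus split by genotype, and its part in the genotype differences was not tested. Levels are TPM, which scale fragments by transcript length and by the library total. In their levels, libraries stood apart in 2 further ways. First, replicate 3 of all 3 wild-type groups had lower sums of root markers. Markers of root tissues outside the hairs (23 genes, 20 tested) summed to 2043 to 2640 TPM in the 3 replicate 3 libraries and to 4461 to 7634 TPM in the other 10. PYK10 made up most of each sum, at 5773 of 7307 TPM in wild-type mock 1. Of the 20 tested markers, 14 to 16 lay under 50% of the mean of replicates 1 and 2. Others did not fall, and ESB1 measured 60.22, 37.51 and 25.60 TPM in replicate 3 under ACC, PFT-α and mock. In replicates 1 and 2 of wild type ESB1 measured 5.47 to 7.63 TPM. Of these markers 2 to 4 were listed at 0 in the replicate 3 libraries, with BRN2 and IRT1 at 0 in all 3. Both were low elsewhere, and IRT1 was also at 0 in etr1-1 mock 1. Markers of green tissue (8 genes) summed to 32062 to 39019 TPM in replicate 3 and to 15146 to 26008 TPM elsewhere. Second, the library labelled etr1-1 mock 1 had ethylene-induced genes at ACC-like levels. All 8 such genes lay within the range of the ACC libraries there and above every mock and PFT-α library. ERS2, an ethylene receptor gene induced by ethylene, stood at 46.89 TPM in that library and at 11.04 TPM in etr1-1 mock 2, against 45.36 to 50.43 TPM under ACC in wild type. The replicate 3 shift and this label touch every comparison below, and values without wild-type replicate 3 are given for the members beside them.

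Low levels marked all 3 transcription factor genes. RHD6, which starts hair formation, measured 1.71, 2.27 and 0.23 TPM in ACC replicates 1 to 3 and 1.93, 1.21 and 0.41 TPM in PFT-α replicates 1 to 3 of wild type. In etr1-1 it measured 1.99 and 1.59 TPM under PFT-α and 1.62 and 2.44 TPM in mock, against 1.89, 2.49 and 0.94 TPM in wild-type mock. Replicate 3 of each wild-type group was its lowest library, and the remaining 10 libraries spanned 1.21 to 2.49 TPM with no group set apart. RSL4, which sets hair length, measured 3.30, 2.45 and 0.20 TPM under ACC and 1.48, 1.42 and 0.50 TPM under PFT-α in wild type. In etr1-1 RSL4 measured 1.17 and 2.34 TPM under PFT-α and 2.1 and 1.54 TPM in mock, against 1.99, 2.65 and 0.05 TPM in wild-type mock. Its highest library was ACC replicate 1, and the ACC and mock ranges overlapped. RSL2, a factor that acts beside RSL4, measured 1.12, 2.51 and 0.14 TPM under ACC and 1.53, 1.26 and 0.05 TPM under PFT-α in wild type. In etr1-1 RSL2 measured 0.64 and 0.94 TPM under PFT-α and 0.86 and 0.66 TPM in mock, against 1.15, 1.68 and 0.0 TPM in wild-type mock. All 4 etr1-1 libraries lay below replicates 1 and 2 of every wild-type group. Within a treatment, both etr1-1 libraries lay below these 2 replicates for 33.9% of all tested genes under PFT-α and 19.3% in mock. At these depths the 0.05 TPM of RSL4 in wild-type mock replicate 3 stood for about 1 fragment and its 2.65 TPM in replicate 2 for about 56.

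RHD2, the NADPH oxidase that makes reactive oxygen at the hair tip, was expressed above the transcription factors, at 8.83, 9.18 and 2.12 TPM under ACC and 11.46, 11.41 and 3.68 TPM under PFT-α in wild type. In etr1-1 RHD2 measured 7.96 and 6.94 TPM under PFT-α and 8.07 and 5.38 TPM in mock, against 9.28, 8.82 and 3.72 TPM in wild-type mock. Replicates 1 and 2 under PFT-α were the highest of all 13 libraries. Group means were 6.71 ± 3.98 TPM under ACC and 8.85 ± 4.48 TPM under PFT-α in wild type (SD, n = 3 each), 7.45 ± 0.721 TPM under PFT-α and 6.73 ± 1.90 TPM in mock in etr1-1 (SD, n = 2 each), and 7.27 ± 3.09 TPM in wild-type mock (SD, n = 3). In each wild-type group replicates 1 and 2 lay close together and replicate 3 apart.

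**Figure D1:**
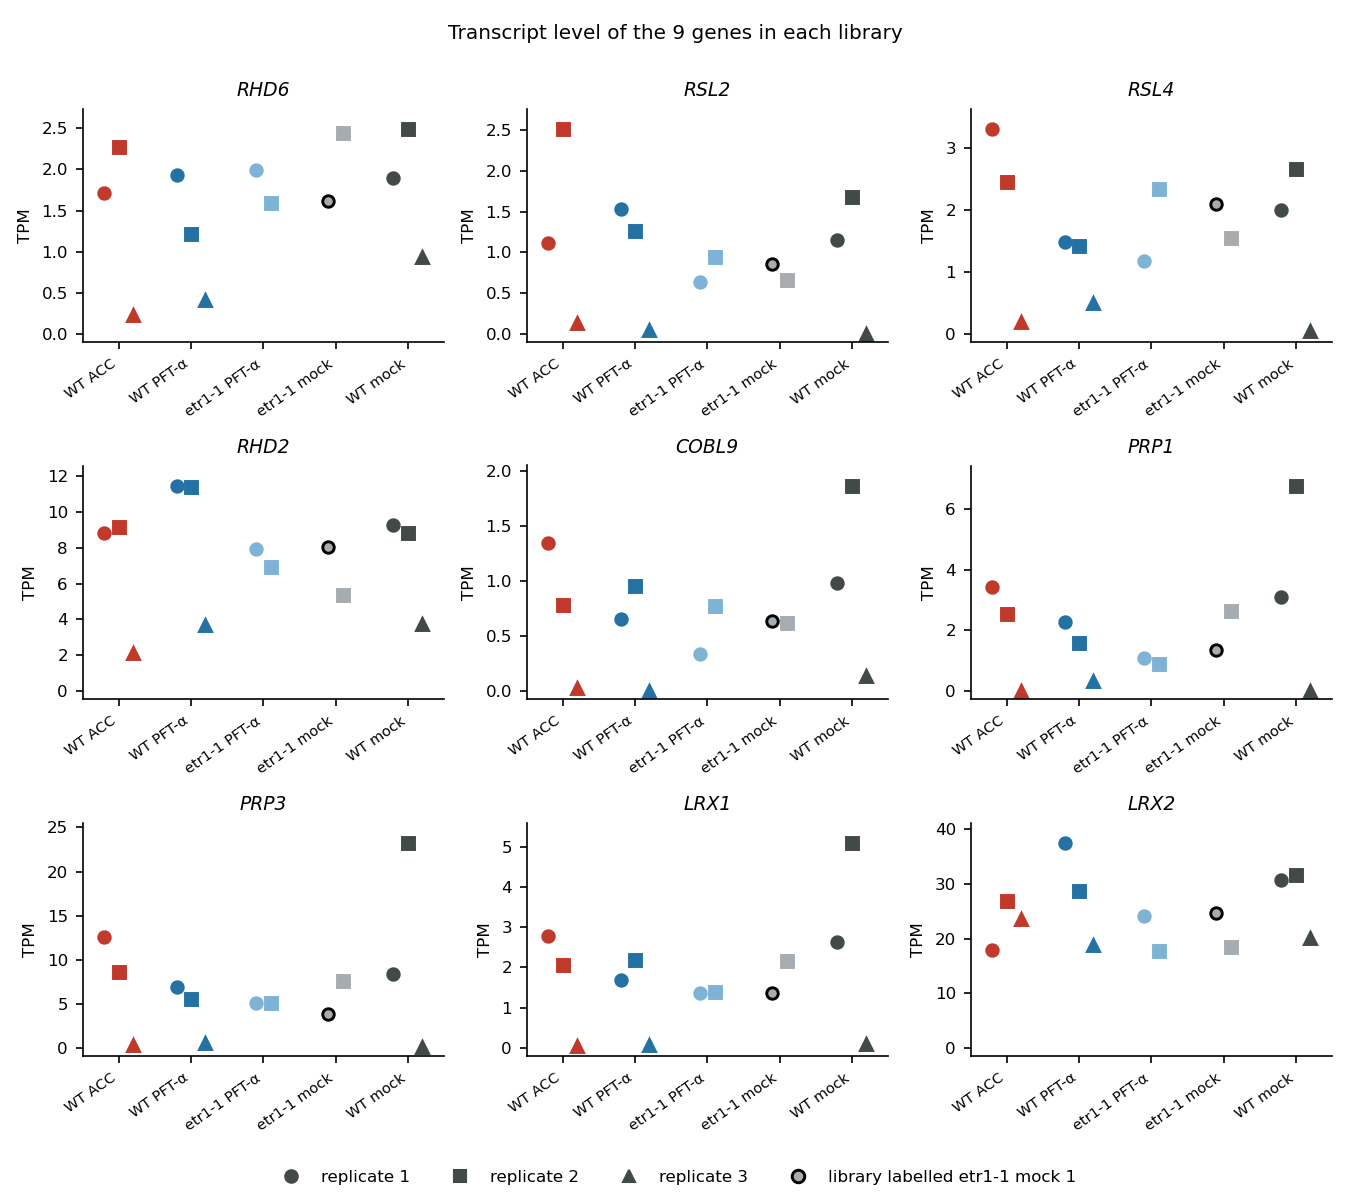
Transcript level (TPM, vertical axis, from 0) of each of the 9 genes in each library, with groups along the horizontal axis and marker shapes for replicate numbers; the outlined circle is the library labelled etr1-1 mock 1. Wild-type replicate 3 (triangles) is the lowest of its group for 8 genes, while LRX2 stays between 18.92 and 23.61 TPM in those 3 libraries.

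Among the wall proteins, PRP3 and PRP1, proline-rich structural proteins of the hair wall, varied most between libraries. PRP3 measured 12.60, 8.59 and 0.33 TPM under ACC and 6.88, 5.54 and 0.55 TPM under PFT-α in wild type. In etr1-1 PRP3 measured 5.07 and 5.13 TPM under PFT-α and 3.85 and 7.64 TPM in mock, against 8.36, 23.24 and 0.17 TPM in wild-type mock. Mock replicate 2 was high and replicate 3 nearly empty, at about 436 and 3 fragments. PRP1 was lower than PRP3 in every library, with 3.42, 2.53 and 0.0 TPM under ACC and 2.28, 1.6 and 0.34 TPM under PFT-α in wild type. In etr1-1 PRP1 measured 1.1 and 0.90 TPM under PFT-α and 1.35 and 2.63 TPM in mock, against 3.09, 6.77 and 0.0 TPM in wild-type mock. It was listed at 0 in 2 of the 3 replicate 3 libraries. LRX1, an extensin with leucine-rich repeats that shapes the hair wall, measured 2.77, 2.05 and 0.04 TPM under ACC and 1.68, 2.19 and 0.07 TPM under PFT-α in wild type. In etr1-1 LRX1 measured 1.37 and 1.39 TPM under PFT-α and 1.36 and 2.15 TPM in mock, against 2.63, 5.09 and 0.11 TPM in wild-type mock. COBL9, a membrane-anchored protein needed for directed hair growth, measured 1.34, 0.78 and 0.03 TPM under ACC and 0.65, 0.95 and 0.0 TPM under PFT-α in wild type. In etr1-1 COBL9 measured 0.34 and 0.77 TPM under PFT-α and 0.64 and 0.62 TPM in mock, against 0.98, 1.86 and 0.14 TPM in wild-type mock. Wild-type mock replicate 2 was the highest of all 13 libraries for RHD6, COBL9, PRP1, PRP3 and LRX1.

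LRX2, which acts together with LRX1 in hair walls, had the highest level per length of the 9 genes in every library, at 17.90, 26.86 and 23.61 TPM under ACC and 37.48, 28.71 and 18.92 TPM under PFT-α in wild type. In etr1-1 LRX2 measured 24.14 and 17.82 TPM under PFT-α and 24.71 and 18.39 TPM in mock, against 30.63, 31.70 and 20.03 TPM in wild-type mock. Means were 22.8 ± 4.54 TPM under ACC and 28.4 ± 9.28 TPM under PFT-α in wild type (SD, n = 3 each), 21.0 ± 4.47 TPM under PFT-α and 21.6 ± 4.47 TPM in mock in etr1-1 (SD, n = 2 each), and 27.5 ± 6.45 TPM in wild-type mock (SD, n = 3). In order of the means, each group differed from the next by less than the larger SD of the pair.

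Loss of signal in replicate 3 was uneven over the 9 genes. Set against the mean of replicates 1 and 2 of the same treatment, replicate 3 held a median of 6.96% under ACC, 17.5% under PFT-α and 2.85% in mock. Root markers kept a median of 29.4% under ACC, 20.5% under PFT-α and 29.5% in mock, and all tested genes 87.7%, 88.8% and 97.8%. LRX1 kept 1.66% under ACC, 3.62% under PFT-α and 2.85% in mock, and PRP3 kept 3.11%, 8.86% and 1.08%. RHD2 kept more, at 23.5% under ACC, 32.2% under PFT-α and 41.1% in mock. LRX2 stood apart from the other 8, at 105% under ACC, 57.2% under PFT-α and 64.3% in mock. RSL2 kept 7.71%, 3.58% and 0.0%, COBL9 2.83%, 0.0% and 9.86%, and PRP1 0.0%, 17.5% and 0.0%, in the same order of treatments. Low shares thus occurred both with the root hair element in the promoter (PRP1, PRP3 and LRX1) and without it (RSL2 and COBL9). All 142 tested genes with the element in their promoter kept a median of 74.1%, 73.5% and 83.4%. These shares describe 1 library each and were not tested.

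**Figure D2:**
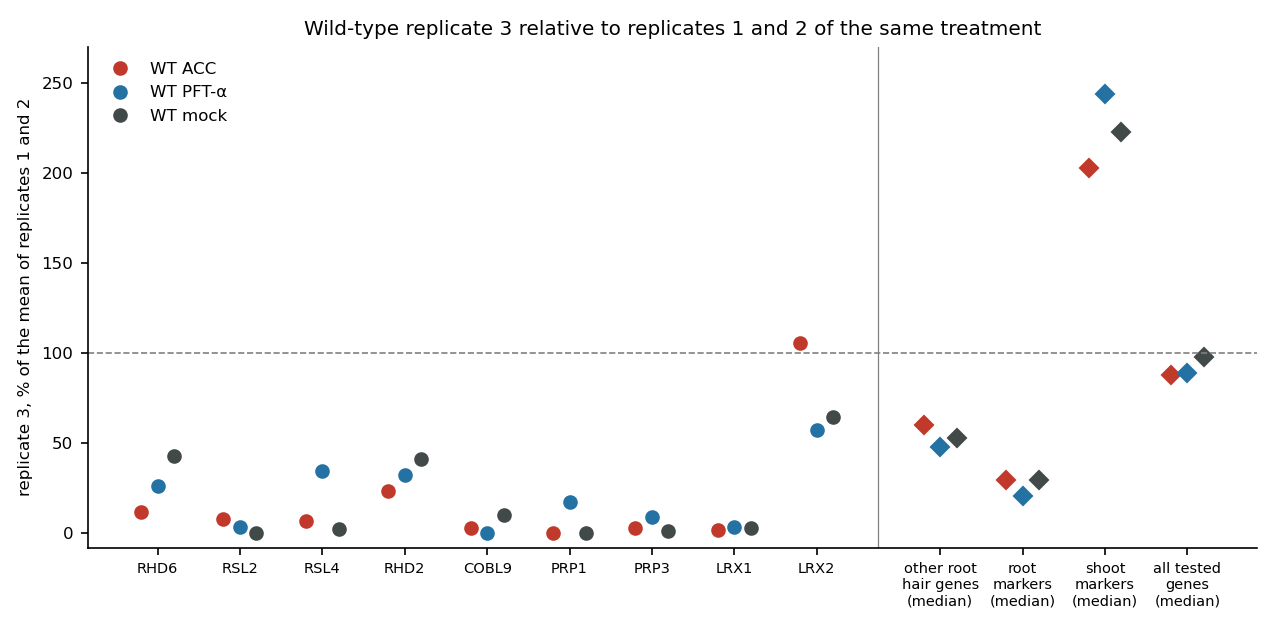
Wild-type replicate 3 as a percentage of the mean of replicates 1 and 2 (vertical axis) for each of the 9 genes (circles) and as the median of gene lists (diamonds), by treatment. In all 3 treatments 8 of the 9 genes lie under 50%, against 105%, 57.2% and 64.3% for LRX2 under ACC, PFT-α and in mock. In the same order 14.8%, 18.6% and 17.5% of all tested genes lie under 50%, and 70%, 80% and 75% of tested root markers.

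ACC against mock in wild type asked how these genes stood after 4 h of an added ethylene precursor. RSL4 had no shared direction over the pairs of same-numbered libraries, with differences of 0.52, -0.08 and 0.19 in log2(TPM + 1), and its fitted difference was 0.21 (95% interval -1.0 to 1.43). PRP3 differed by 0.54, -1.34 and 0.18 over the pairs and by -0.20 in the fit (-2.75 to 2.34). RHD6 differed by -0.09, -0.09 and -0.66, with a fitted difference of -0.28 (-1.16 to 0.60). It was the only one of the 9 that lay lower under ACC in all 3 pairs, a pattern that 19.3% of all tested genes showed. LRX2 differed by -0.25 (-0.85 to 0.36), lower in pairs 1 and 2 and higher in pair 3. None of the 9 genes passed the test, limma on log2(TPM + 1) over 13 libraries with Benjamini-Hochberg adjustment at 0.05 (adjusted p of 1.0 for each, 0 of 9 at an unadjusted p under 0.05). Across all 21091 tested genes 0.00948% were called. Their fitted differences ran from -0.35 (LRX1) to 0.21 (RSL4), with a median of -0.20, against -0.0013 over all tested genes. With the replicate number as a block over the 9 wild-type libraries (the paired fit), 5.5% of tested genes were called and still 0 of the 9 (adjusted p 0.544 to 0.886). Without the 3 wild-type replicate 3 libraries the differences ran from -0.51 (PRP1) to 0.22 (RSL4), with 0 of 9 called and 0 at an unadjusted p under 0.05.

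Under PFT-α several wall protein genes had lower values than in mock in pairs 1 and 2, and none of the differences passed the test. COBL9 differed by -0.26, -0.55 and -0.19 over the 3 pairs and LRX1 by -0.44, -0.93 and -0.05, and these 2 were the genes lower in all 3 pairs (17.3% of all tested genes). In pairs 1 and 2 alone, 5 of the 9 were lower, RSL4, COBL9, PRP1, PRP3 and LRX1, against 28.3% of all tested genes. Pair 2, which holds the high mock library, gave the largest of these differences, -1.89 for PRP3 and -1.58 for PRP1. RHD2 went the other way in pairs 1 and 2, by 0.28 and 0.34, and differed by -0.01 in pair 3. Fitted differences were -0.58 for PRP3 (95% interval -3.12 to 1.97), -0.49 for PRP1 (-2.15 to 1.16), -0.47 for LRX1 (-1.96 to 1.01), -0.33 for COBL9 (-1.23 to 0.56) and 0.20 for RHD2 (-0.97 to 1.37). In the limma test over 13 libraries 0 of 9 were called (adjusted p of 1.0 for each, 0 at an unadjusted p under 0.05), as were 0.0% of all tested genes, of which 147 had an unadjusted p under 0.05. The paired fit likewise called 0 of 9 and 0.0% of all genes, with 817 at an unadjusted p under 0.05. Without wild-type mock replicate 2 the PRP3 difference was 0.38, PRP1 0.16 and LRX1 0.06, and without mock replicate 3 they were -1.81, -1.32 and -1.17. Without all 3 wild-type replicate 3 libraries the 9 differences ran from -1.07 (PRP3) to 0.31 (RHD2). In that fit PRP1 (-0.95), LRX1 (-0.69) and PRP3 had an unadjusted p under 0.05, as did 636 of all 21091 tested genes. Limma's adjusted p was 1.0 for each of the 9. With libraries weighted by their fit, PRP1 was called (-1.31, limma adjusted p = 0.0358), as were 606 of all 21091 tested genes. Its adjusted p was up to 1.0 over the other alternatives.

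**Figure D3:**
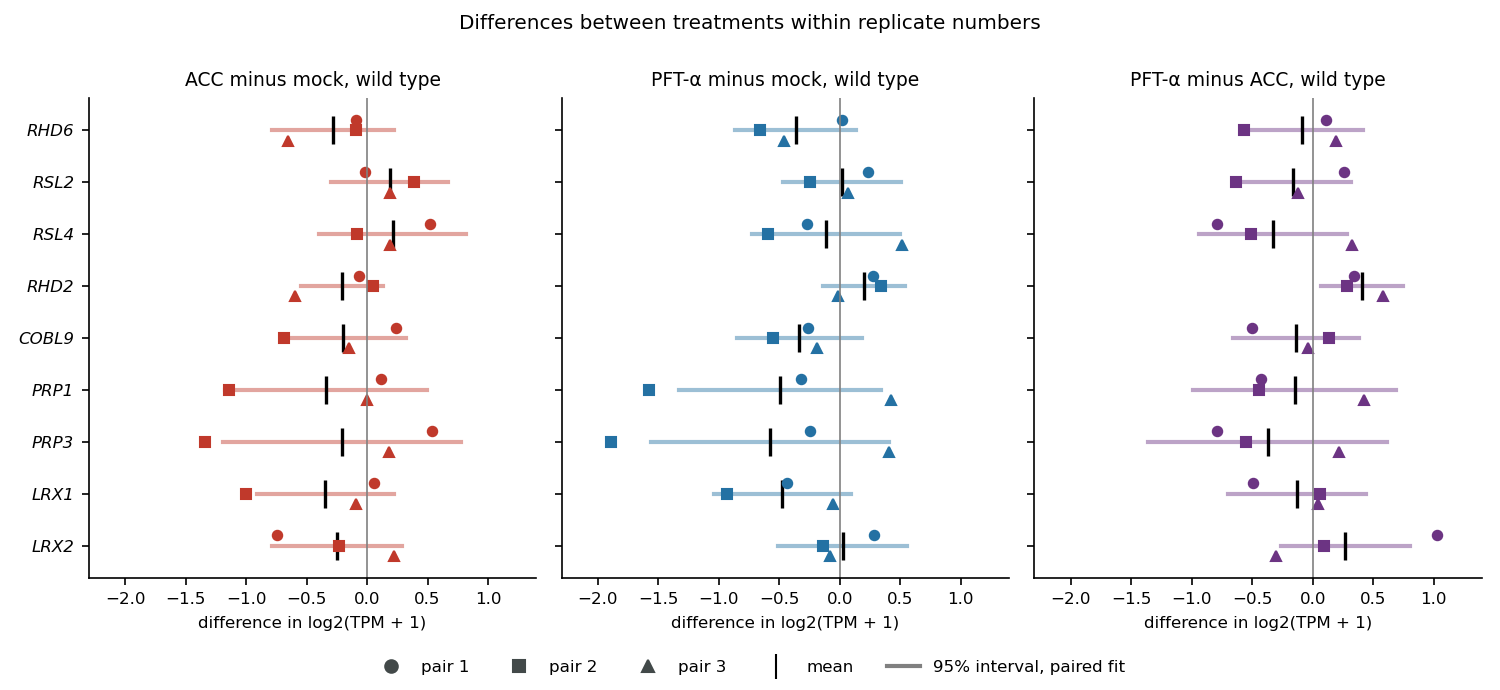
Differences in log2(TPM + 1) between treatments of wild type within each replicate number (markers), their mean (tick) and the 95% interval of the paired fit (bar), for ACC minus mock, PFT-α minus mock and PFT-α minus ACC. RHD2 under PFT-α minus ACC is the row whose interval lies above 0, and PRP3 in pair 2 of PFT-α minus mock lies farthest from 0, at -1.89.

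PFT-α was also set directly against ACC in wild type. RHD2 was higher under PFT-α in all 3 pairs, by 0.34, 0.29 and 0.58, as were 15.3% of all tested genes. Its fitted difference was 0.40 (SE 0.53) over 13 libraries and the same with an SE of 0.15 in the paired fit, where the unadjusted p was 0.0256 and limma's adjusted p 0.254. RSL4 differed by -0.79, -0.51 and 0.32 over the pairs, with a fitted difference of -0.33 (95% interval -1.54 to 0.89). Neither the fit over 13 libraries (0.0% of tested genes called, 1168 at an unadjusted p under 0.05) nor the paired fit (2.61% called) called any of the 9. Without the 3 wild-type replicate 3 libraries the differences ran from -0.67 (PRP3) to 0.56 (LRX2). RSL4 (-0.65) and LRX2 then had an unadjusted p under 0.05, as did 2626 of all 21091 tested genes. Of the 9, 0 were called (limma adjusted p 0.351 to 0.803).

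The 2 etr1-1 libraries per treatment were first set beside replicates 1 and 2 of wild type. Under PFT-α, 6 of the 9 genes (RSL2, RHD2, PRP1, PRP3, LRX1 and LRX2) lay lower in both etr1-1 libraries than in both wild-type ones, as did 33.9% of all tested genes. RHD2 stood at 7.96 and 6.94 TPM in etr1-1 against 11.46 and 11.41 TPM in wild type there, and LRX2 at 24.14 and 17.82 TPM against 37.48 and 28.71 TPM. In mock, 7 of the 9 were lower in this way (RSL2, RHD2, COBL9, PRP1, PRP3, LRX1 and LRX2), against 19.3% of all tested genes. PRP3 stood at 3.85 and 7.64 TPM in etr1-1 mock against 8.36 and 23.24 TPM in wild-type mock. When the library labelled etr1-1 mock 1 was left out, 8 of the 9 (all but RHD6) lay lower in etr1-1 mock 2 than in both wild-type libraries, against 39.3% of all tested genes. Without wild-type replicate 3 the median difference in log2(TPM + 1) of the 9 genes was -0.30 under PFT-α and -0.53 in mock. Root markers gave 0.12 and -0.19, and all tested genes -0.04 and 0.01. Markers of green tissue gave 0.40 and 0.50, with 8 of 8 above 0 in both. The part of tissue content in the genotype difference was not tested.

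With all 13 libraries in the limma fit, 0 of the 9 were called between genotypes under PFT-α (adjusted p 0.842 to 0.994) or in mock (adjusted p of 1.0 for each), and 0 of 9 had an unadjusted p under 0.05 in either, against 1438 of all tested genes under PFT-α and 460 in mock. Without the 3 wild-type replicate 3 libraries 2 of 9 under PFT-α and 4 of 9 in mock had an unadjusted p under 0.05, as did 2761 and 2616 of all tested genes, and 0 of 9 were called. With the replicate block over all 13 libraries these were 1 and 2 of 9, beside 2788 and 2076 of all tested genes, with 0 of 9 called. That block ties etr1-1 numbers to wild-type numbers, a pairing that the data do not show, and etr1-1 has no replicate 3. Of all tested genes 0.0284% were called under PFT-α and 0.0284% in mock. The fitted difference of PRP3 was 0.50 under PFT-α and 0.01 in mock, and without the 3 wild-type replicate 3 libraries it was -0.23 and -1.22. RHD2 differed by -0.09 under PFT-α and -0.04 in mock over all libraries, and by -0.56 and -0.40 without replicate 3. LRX2 kept its direction, with -0.38 under PFT-α and -0.32 in mock over all libraries and -0.64 and -0.53 without replicate 3. When the 3 replicate 3 libraries and the library labelled etr1-1 mock 1 were left out together, RHD2 differed by -0.56 under PFT-α. That fit left 1 library of etr1-1 mock. With weighted libraries LRX2 was called under PFT-α (-0.50, limma adjusted p = 0.0451), as were 3293 of all 21091 tested genes. Over the other alternatives the adjusted p of LRX2 reached up to 1.0.

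**Figure D4:**
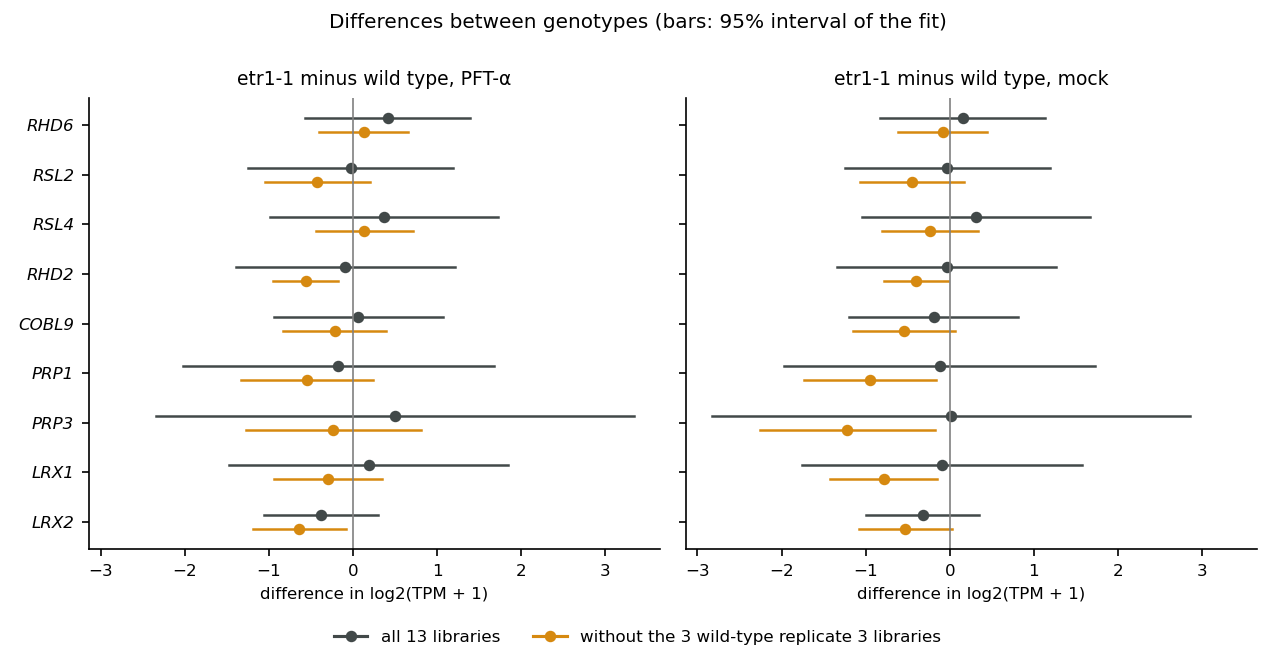
Differences in log2(TPM + 1) between etr1-1 and wild type (horizontal axis; dots, with bars for the 95% interval of the fit) for each gene, under PFT-α and in mock, with all 13 libraries and without the 3 wild-type replicate 3 libraries. Without replicate 3 the dots shift to the left for all 9 genes in both panels, for PRP3 in mock to -1.22.

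Within etr1-1, PFT-α and mock libraries overlapped for 8 of the 9 genes. PRP1 was the exception, lower in both PFT-α libraries (1.1 and 0.90 TPM) than in both mock libraries (1.35 and 2.63 TPM), as were 24.5% of all tested genes. Its fitted difference was -0.55 (95% interval -2.57 to 1.48), and -0.86 without the library labelled etr1-1 mock 1. The limma fit called 0 of 9 (adjusted p of 1.0 for each, 0 at an unadjusted p under 0.05) and 0.0142% of all tested genes. Whether PFT-α acted differently in etr1-1 than in wild type was tested as an interaction, which called 0 of 9 (adjusted p 1.00 for each, 0 at an unadjusted p under 0.05) and 0.00474% of all genes. The interaction of PRP3 was 0.49 with a 95% interval of -3.53 to 4.51 and so spans both directions. Without the 3 wild-type replicate 3 libraries it was 0.98 (-0.49 to 2.46), with 0 of 9 called (limma adjusted p 0.668 to 0.987).

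Of 51 other root hair genes on a list kept beside the 9, 38 were high enough to be tested. In the fit over 13 libraries 0 were called in any of the 7 comparisons. In the paired fit 5 of 38 fell under ACC against mock and 0 rose, while 0 of 38 were called for PFT-α against mock. Of all 21091 tested genes 3.93% fell under ACC in that fit and 331 rose. ROP2, the small GTPase that marks the site of hair outgrowth, measured 63.98, 66.50 and 55.89 TPM under ACC, against 100.94, 108.12 and 90.68 TPM in mock (log2 -0.68, SE 0.07, limma adjusted p = 0.00398 in the paired fit and 0.191 in the fit over 13 libraries). GTL1, a transcription factor that restrains hair growth, measured 61.62, 71.21 and 65.97 TPM under ACC, against 103.08, 101.36 and 110.49 TPM in mock (-0.66, adjusted p = 0.0103 paired and 0.149). ROP2 and GTL1, and XIK, GL2 and EGL3 below, lay lower under ACC in all 3 same-numbered pairs. They were among 14 of the 38 that did so, against 19.3% of all tested genes. These 5 are named because the paired fit called them lower, so the pattern is no separate support. XIK, a myosin of the growing hair, measured 27.94, 29.18 and 14.70 TPM under ACC, against 43.60, 45.50 and 23.95 TPM in mock (-0.64, adjusted p = 0.0128 paired and 0.848). GL2, which blocks hair fate in non-hair cells, measured 3.73, 3.79 and 3.66 TPM under ACC, against 7.32, 6.52 and 6.20 TPM in mock (-0.70, adjusted p = 0.0213 paired and 0.280). EGL3, a partner in the patterning complex above GL2, measured 1.83, 1.83 and 2.23 TPM under ACC, against 3.64, 4.19 and 6.07 TPM in mock (-0.91, adjusted p = 0.0295 paired and 0.247). With the block over all 13 libraries ROP2, GTL1 and XIK kept the call, at an adjusted p of 0.0258, 0.0258 and 0.0406. Leaving out either one of the 2 etr1-1 mock libraries does not touch the wild-type libraries, and the differences between ACC and mock stayed the same.

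In these 5 genes the library labelled etr1-1 mock 1 again sat near the ACC libraries, at 67.15 TPM for ROP2 beside 106.35 TPM in etr1-1 mock 2, and at 1.57 TPM for EGL3 beside 4.51 TPM. Against ACC, PFT-α libraries were higher for ROP2 (log2 0.48, limma adjusted p = 0.0228) and GTL1 (0.48, 0.0491) in the paired fit, and the fit over 13 libraries gave 0.673 and 0.520. ROP2 and GTL1 measured 87.52, 94.83 and 78.44 TPM and 98.35, 93.46 and 87.44 TPM under PFT-α. The genes that fell under ACC have opposed known roles, since GL2 keeps cells hairless and GTL1 restrains growth, whereas ROP2 and XIK serve it. Replicate 3 held 85.7 to 86.8% of the mean of replicates 1 and 2 for ROP2 and 91.2 to 108% for GTL1. It held 76.0 to 97.3% for GL2, 84.1 to 155% for EGL3 and 42.1 to 53.8% for XIK. Medians of root markers were 20.5 to 29.5%. Where in the seedling the signal of these 5 genes arose was not tested. The other root hair list had a median of -0.12 under ACC and -0.19 under PFT-α against mock, with 28 and 35 of 38 below 0. All tested genes had -0.0013 and -0.025. Root markers had medians of -0.10 and -0.14, with 15 of 20 below 0 in each, and markers of green tissue had 0.19 in both, with 7 and 8 of 8 above 0. The part of tissue content in these medians was not tested. In pairs 1 and 2 of PFT-α against mock, 24 of the 38 were lower, against the 28.3% of all tested genes given above. Close relatives of the regulators, picked out after their values were seen, were nearly silent. RSL1, the partner of RHD6, stayed between 0.0 and 0.32 TPM. RSL5 reached 1.36 TPM in ACC replicate 1 and was too low to be tested. It was listed at 0 in all 5 PFT-α libraries, in wild-type replicate 3 of ACC and of mock, and in etr1-1 mock 2.

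**Figure D5:**
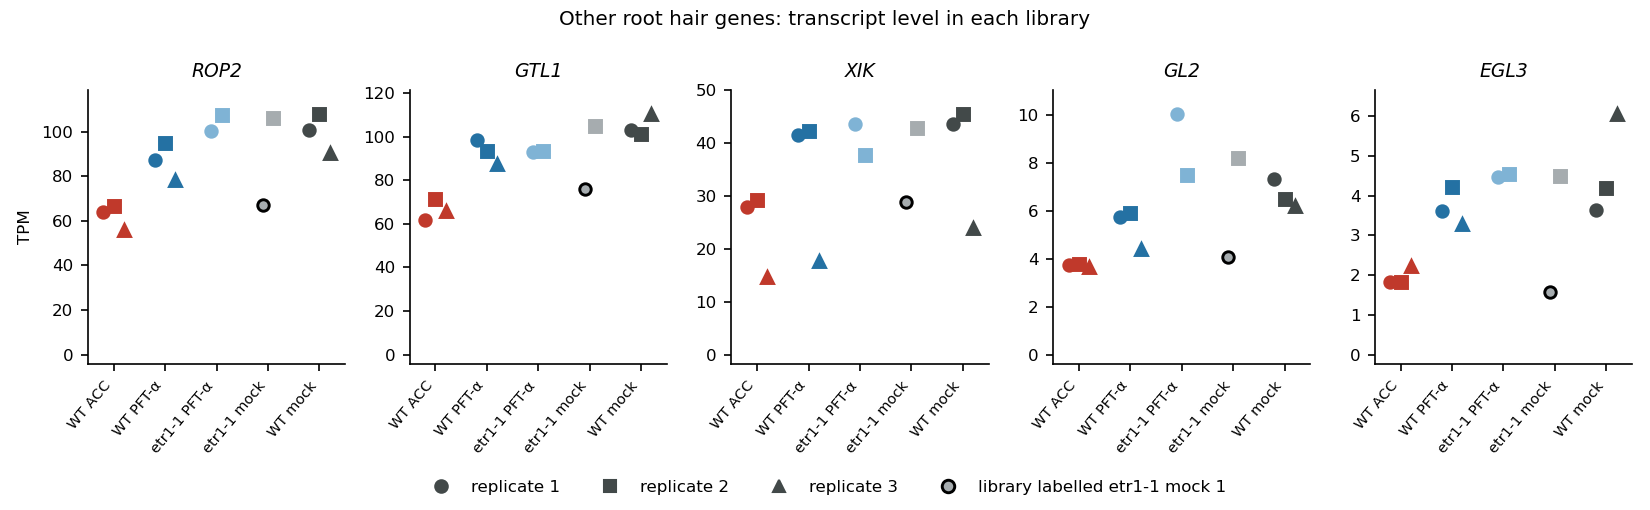
Transcript level (TPM, vertical axis, from 0) of 5 other root hair genes in each library, by group, with marker shapes for replicate numbers and the library labelled etr1-1 mock 1 outlined. ACC libraries of ROP2, at 55.89 to 66.50 TPM, lie below the mock libraries, at 90.68 to 108.12 TPM, and the outlined library lies beside the ACC ones.

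Across the 9 wild-type libraries, after the mean of each replicate number was taken off, the members did not all vary together. Pearson's r with the mean of all 9 (each gene being part of that mean) was 0.95 for PRP1, 0.91 for PRP3, 0.82 for LRX1, 0.70 for COBL9, 0.70 for RHD6 and 0.57 for RSL4. It was 0.15 for RSL2, -0.03 for LRX2 and -0.21 for RHD2. Genes outside the 9 that followed this mean most closely were AGP3, an arabinogalactan protein gene (AT4G40090, r = 0.976), AT4G05685 (0.973), DOF6 (AT3G45610, 0.967), AT1G07587 (0.963) and PEPR2 (AT1G17750, 0.960), a receptor of danger peptides. AGP3 measured 7.47, 7.16 and 0.35 TPM under ACC and 5.52, 4.12 and 1.13 TPM under PFT-α, against 7.53, 15.36 and 0.72 TPM in mock. AGP3 shared with PRP1 and PRP3 the high mock replicate 2 and the low replicate 3, although the likeness was computed after replicate means were removed. In mock, DOF6 measured 3.66, 4.16 and 9.73 TPM and AT4G05685 7.57, 11.41 and 9.73 TPM. PEPR2 measured 1.11, 1.5 and 1.12 TPM there, and AT1G07587 0.17, 1.25 and 0.3 TPM. Replicate 3 was thus not the lowest mock library for any of these. Outside mock replicate 2, AT1G07587 stayed at 0.15 to 0.31 TPM. How far the correlations rest on that library was not tested. These correlations rest on 9 libraries that share replicate numbers and treatments, and describe this set alone.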

How the data were processed

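Polyadenylated RNA of 13 libraries was measured as TPM in 1 deposited table, so named per the file headers, which gives level per transcript length scaled to a fixed total per library. Its 5 columns of group means, made by the authors, were not used. The authors used TAIR10 with StringTie, RSEM, fastp, DESeq2, HISAT and HISAT2, per the submitters' processing notes, which as used here give no roles. The kit keeps strand, per the labels' protocols, and whether counting used it is not given in the sources used here. Counts were not used here. Depths and fragments were estimated from the smallest steps in TPM times length, with 82.3 to 86.9% of low values within 0.15 of a whole step.

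The labels gave group and replicate number. Tests ran on log2(TPM + 1), a scale that understates changes of low genes, for the 21091 genes that reached 1 TPM in 2 or more libraries. All 9 members did, COBL9 in only 2. A limma 3.58.1 fit (R 4.3.3) with trended variance, 1 mean per group and shared spread over 13 libraries, gave two-sided tests of 7 comparisons with Benjamini-Hochberg adjustment over all tested genes at 0.05. The procedure was tested on simulated data. Wild-type libraries of 1 replicate number were treated as paired, because deviations from the group means correlated across genes at 0.28 to 0.77 in all 9 same-numbered wild-type pairs. Different-numbered wild-type pairs gave -0.64 to 0.54, and no label says what a number shares. All the negative values involved replicate 3. Libraries numbered 1 against 2 gave 0.29 to 0.54, much like same-numbered pairs of 1 and 2 at 0.28 to 0.55. Between genotypes same-numbered pairs gave -0.22 to 0.24 and different-numbered pairs -0.24 to 0.24. The data thus set replicate 3 apart, and do not show that 1 belongs with 1 or 2 with 2, within wild type or between genotypes. The paired fit takes the number as a block over the 9 wild-type libraries. Alternatives were the block over all libraries, a pseudocount of 0.1, no filter on low values, median of ratios scaling, levels relative to root markers, no trend, library weights, and leaving out libraries.

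The members and gene lists were chosen with earlier results of these data known. Besides the members, the text names genes of the other root hair list called in the fit over 13 libraries or the paired fit, and the 5 genes with the highest correlation to the members' mean. RSL1 and RSL5 were added from that list after their values were seen. Single markers are named where a list or a label is described. Symbols, positions and the 250-base promoters came from RefSeq's TAIR10.1 genome and annotation. Its transcript lengths equal those in the table for all 9 members and for 99.4% of 27445 shared genes. Relatives were compared with BLAST 2.17.0, and figures were drawn with matplotlib 3.10.9 in Python 3.11.15.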

Additional observations from a re-analysis of the deposited data

How the results depend on the processing

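The count of members called was 0 of 9 in 154 of 157 re-computed comparisons. Weighted libraries called 1 member in PFT-α against mock in wild type and 1 in etr1-1 against wild type under PFT-α, and leaving out the 3 wild-type replicate 3 libraries together with etr1-1 mock replicate 1, an alternative chosen after seeing the data, called 1 in the genotype comparison under PFT-α. Both fits with the replicate block called 0 members in every comparison they give. With the block over all 13 libraries 710 genes were called for ACC against mock and 28 for PFT-α against ACC, against 2 and 0 without it. The paired fit, which also leaves out the 4 etr1-1 libraries, called 1159 and 551. PFT-α against mock gave 0 in all 3 fits. Over all alternatives the genes called ranged from 0 to 2142 for ACC against mock, 0 to 606 for PFT-α against mock, 0 to 1223 for PFT-α against ACC, 3 to 349 and 2 to 3293 for etr1-1 against wild type in mock and under PFT-α, 2 to 200 for PFT-α in etr1-1 and 0 to 135 for the interaction. Leaving out etr1-1 mock replicate 1 or 2 without any block gave 364 or 356 calls for ACC against mock and 118 or 116 for PFT-α against ACC. Either fit left 1 library of etr1-1 mock and the same wild-type libraries, so they are not separate checks. The cause of the higher counts was not tested.

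Direction changed in 37 of 590 re-computed single-gene differences, all of members. PRP3 in etr1-1 against wild type in mock was -1.56 with weighted libraries, -0.0019 with median of ratios scaling, -0.27 relative to root markers, -0.99 with the replicate block over all 13 libraries, -1.22 without the 3 replicate 3 libraries and -0.80 without these and etr1-1 mock replicate 1. Under PFT-α it was -0.12, unchanged in sign with median of ratios, -0.029 relative to root markers, -0.50 with the block, and -0.23 without replicate 3, with or without etr1-1 mock replicate 1. Scaling to root markers moved the median of all genes to 0.11 and 0.12 for ACC and PFT-α against mock, -0.26 and -0.52 for etr1-1 in mock and under PFT-α, -0.16 for PFT-α in etr1-1 and -0.28 for the interaction.

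Leaving out 1 library at a time gave these ranges where a sign changed. For ACC against mock they were -0.56 to 0.14 for RHD6, -0.34 to 0.77 for RSL4 and -1.43 to 0.83 for PRP3. For PFT-α against mock they were -1.81 to 0.38 for PRP3, -1.32 to 0.16 for PRP1, -1.17 to 0.059 for LRX1 and -0.16 to 0.67 for RHD2. For PFT-α against ACC they were -0.16 to 0.87 for RHD2 and -0.89 to 0.032 for RSL4. Between genotypes PRP3 spanned -1.22 to 0.97 in mock and -0.23 to 0.94 under PFT-α, RHD2 -0.40 to 0.22 and -0.56 to 0.15 (-0.66 in mock without replicate 3 and etr1-1 mock replicate 1), and the interaction of PRP3 -0.47 to 1.72. No alternative run changed the sign of LRX2 in ACC against mock or between genotypes, of COBL9 in PFT-α against mock in wild type, of PRP1 in PFT-α against mock in etr1-1, or of the 5 other root hair genes in the comparisons printed for them. At under 5 TPM the members rest on few fragments, and 2 or 3 libraries per group limit what could be detected.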
